A study of Saccharomyces cerevisiae with 177 samples.

Results

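Med7 is a subunit of the middle module of Mediator, and the strain described here, med7N_del, made only a version of Med7 that lacks its N-terminal part. The data are the 3 med7N_del libraries (replicates A to C) and the 3 libraries of the control Med7_WT (A to C), which are 2 of the 60 groups and 6 of the 177 samples of a series on Mediator function in the budding yeast Saccharomyces cerevisiae. Members were taken by their group label, and the genes compared were the 4385 of 5794 listed genes whose signal averaged at least 10 over these 6 libraries. Cells in mid-log growth at 30 °C in synthetic complete medium were given 4-thiouracil for 5 min, and the labelled, newly made RNA was purified and sequenced. The signal of a gene is its reads multiplied by 1 factor per library, deposited by the authors, and it is not divided by gene length.

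Per the labels, both strains were MAT alpha and carried Dade2::hisG, his3D200 and leu2D0, as well as lys2D0 and met15D0, and further trp1D63 and ura3D0. Both also held pGPD1-OSTIR::HIS3, a source of the plant receptor OsTIR1 that degron strains need, and a KanMX deletion of chromosomal MED7, so that all Med7 came from ars cen plasmids. The med7N_del strain (SHY1427) carried the TRP1 plasmid pSH1986 with med7DN, and the Med7_WT strain (SHY1444) was labelled with the LEU2 plasmid pSH1970 with MED7. Neither was treated with 3-indoleacetic acid (3IAA) or its solvent DMSO. Values of 3 other strains are set beside them where they bear on the deletion. In the Med7N degron strain (SHY1436), pSH1986 with med7DN was combined with the LEU2 plasmid pSH1991, which supplies the N-terminal part as a separate piece with a degron (mini degron-med7DC), and cells received 3IAA or DMSO, with 3 libraries of each. The Med7_EWE3 strain (SHY1445, 2 libraries) carried the LEU2 plasmid pSH1998 with the allele labelled med7 EWE3. The Med31 degron libraries (3 with 3IAA and 3 with DMSO) are named for Med31 in their titles, whereas their genotype label names MED19. Each strain is a single constructed strain with the MED7 copy on a plasmid, and the labels do not give the boundary of the deletion. They also do not say whether replicates came from separate cultures, so the p-values below measure the spread between these samples.

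Mediator carries signals from DNA-bound activators to RNA polymerase II and is built of head, middle and tail modules, with a kinase module that can detach. Med7 forms an extended part of the middle module together with Med21, and its N-terminal part pairs with Med31 in a small submodule. Med31 and the Med7 N-terminal part are not needed for growth in yeast, whereas the Med7 C-terminal part is. Work in yeast has linked the Med7N and Med31 submodule to regulated genes such as those of methionine synthesis and iron transport.

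The genotypes were checked first. MED7 itself (chromosome XV, 69376 to 70044, minus strand, sacCer3) had a signal of 18.34, 17.59 and 14.75 in med7N_del libraries, against 116.74, 127.68 and 141.57 in Med7_WT libraries. The MED7 groups did not overlap, and the gene lay 1.82 lower on the log2 scale than the median gene (log2 change -1.82, SE 0.08, limma adjusted p = 6.84e-06). TRP1, the tryptophan synthesis gene that marks the med7DN plasmid, had 5.75, 4.91 and 4.26 in med7N_del libraries and 13.77, 11.43 and 12.47 in Med7_WT libraries. LEU2, the leucine synthesis gene, had 0.03 to 0.07 in med7N_del and 0.13 to 0.40 in Med7_WT, against 2316.04 and 2010.92 in Med7_EWE3. The libraries labelled Med7_WT therefore showed the TRP1 marker and not the LEU2 marker that their label gives, and Med7_WT below means the libraries labelled so. HIS3, ADE2, LYS2 and MET17 were listed at 0 in every library used, HIS3 although a HIS3 marker is part of every label. Genes of the MAT alpha program were present, for example the pheromone gene MF(ALPHA)1 with 784.32, 698.29 and 552.36 in med7N_del and 1209.33, 1461.25 and 1383.95 in Med7_WT, while 6 of 7 a-specific genes stayed below the filter.

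Depth and replicate agreement were as follows. The value of 1 read could be read from the low signals in Med7_WT, which gave 18418086 to 19851197 reads on genes per library. In med7N_del A no such value was found. In med7N_del B and C it came out at 0.011608 and 0.012579, so close to the last deposited decimal that 86.0% and 79.3% of any values would lie on its multiples, and no read total is given for these libraries. Replicates correlated across genes at Pearson r of 0.9869 to 0.9958 within med7N_del and 0.9895 to 0.9948 within Med7_WT, against 0.9581 to 0.9704 between the groups. Whether the authors' counting used the strand is not given in the sources used here, so overlapping and antisense genes cannot be told apart.

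The first comparison asks what the lack of the Med7 N-terminal part did to the output of the genome as a whole. On the deposited scale nearly all genes were lower in med7N_del. The median signal of the tested genes was 27.38, 28.42 and 24.09 in med7N_del libraries, against 55.27, 58.06 and 53.85 in Med7_WT libraries. The means were 26.6 ± 2.26 and 55.7 ± 2.14 (SD, n = 3 each), a 2.09-fold lower median in med7N_del, with no overlap between the groups. An exact permutation test gave p = 0.1 (two-sided), the smallest that 3 against 3 libraries allow. Of the 4385 genes 4356 (99.3%) were called at a limma adjusted p under 0.05, 4343 lower (99.0%) and 13 higher (0.296%). A shift that all genes of a library share enters every one of these tests, so the calls are not separate results. The SE was nearly the same for scattered genes, such as ZPS1 (0.113), as for steady ones, such as HIS4 (0.116). More than 2-fold changes were called for 2605 lower genes (59.4%) and for 2 higher genes (0.0456%), MUP3 and MET28. All 3 med7N_del values lay below all 3 Med7_WT values in 98.7% of genes and above them in 0.251%. The median gene changed by -1.05 on the log2 scale (5th to 95th percentile -1.45 to -0.64). The basis of the authors' factor per library is not given in the sources used here. Under TMM scaling, which centres libraries by construction, the median change was -0.0001, with 801 genes called higher and 790 lower. In bulk libraries, less new RNA per cell and fewer cells behind a signal cannot be told apart.

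All changes from here on are therefore given relative to the median gene, with each library centred on its median, unless the deposited scale is named. On this relative scale 1589 genes (36.2%) were called, 745 higher (17.0%) and 844 lower (19.2%), and the count was 1010 without med7N_del replicate B. Most of these changes were small: 27 genes (0.616%) were more than 2-fold higher and 28 (0.639%) more than 2-fold lower, and 90% of genes lay between -0.41 and 0.40. Of the 745 genes higher on the relative scale, 704 were nevertheless lower on the deposited scale, 28 were not called there and 13 were higher on both. On the relative scale the groups did not overlap in 24.2% of genes upward and 26.4% downward. The 844 relatively lower genes were all lower on the deposited scale. Genes with high signal were more often called lower: among the 877 genes with the highest Med7_WT signal 113 were higher and 257 lower, against 178 higher and 90 lower among the 877 with the lowest. The Med7_WT signal is also the base of the change, and log2(signal + 1) understates the shared fall of low genes. How much of the pattern comes from the calculation was not tested.

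**Figure D1:**
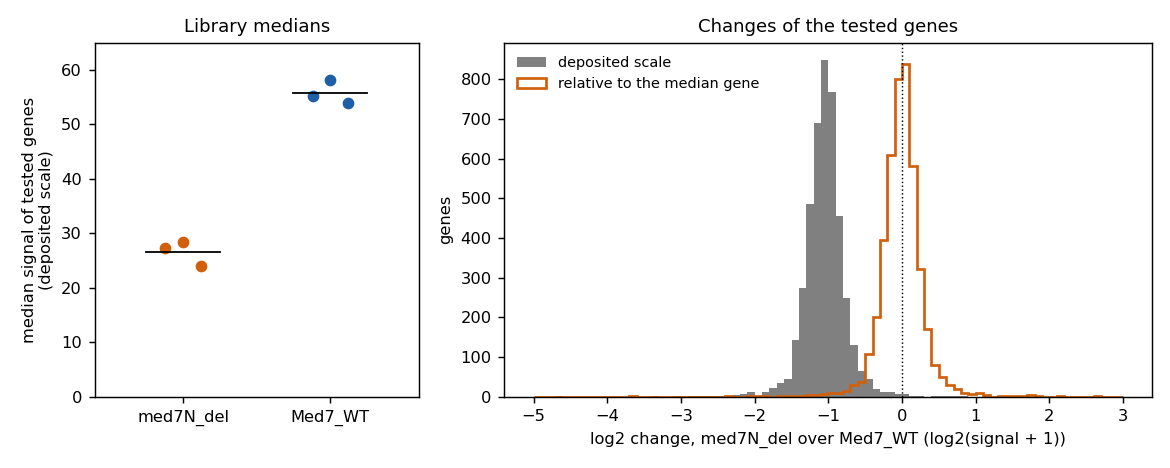
Left, the median signal of the 4385 tested genes in each of the 3 med7N_del and 3 Med7_WT libraries. The med7N_del medians lie between 24.09 and 28.42, all below the Med7_WT medians. Right, histograms of the log2 change of the same genes, med7N_del over Med7_WT, on the deposited scale (median -1.05) and relative to the median gene.

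Genes that mark the genotype, MED7 among them, and genes within 1 kb of these were left out of the rankings that follow. Among the 12 largest relative rises, the methionine and sulfur genes MUP3, MET28, MET2, MHT1 and MMP1 stood beside genes of other amino acid and purine pathways. MUP3, a methionine permease, had 21.56, 25.15 and 29.3 in med7N_del, against 7.85, 7.2 and 7.63 in Med7_WT. It was 3.35-fold higher even on the deposited scale, and its relative change was 2.65 (SE 0.14, limma adjusted p = 1.19e-05). MET28, a bZIP cofactor of sulfur gene transcription, had 41.29, 44.04 and 56.78 in med7N_del and 22.79, 21.31 and 18.53 in Med7_WT, a relative change of 2.18. Each med7N_del library was above each Med7_WT library for both genes, which on the relative scale was required of every ranked gene. ADE17, an enzyme of the last steps of purine synthesis, had 28.03, 33.47 and 22.63 in med7N_del, against 14.36, 15.75 and 14.76 in Med7_WT (1.89). SER3, a phosphoglycerate dehydrogenase that starts serine synthesis, had 37.14, 36.84 and 40.39 against 25.69, 20.6 and 20.65 (1.79). FLR1, a multidrug exporter of the plasma membrane, had 399.69, 528.85 and 488.96 against 330.68, 273.66 and 252.85 (1.76). All 5 genes were higher in every med7N_del library on the deposited scale as well.

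The other 7 of these 12 were HBN1, MET2, HIS4, TIP1, MHT1, DUR12 and MMP1. HIS4, a histidine synthesis enzyme, had 91.11, 102.07 and 82.98 in med7N_del, against 59.81, 59.07 and 58.17 in Med7_WT, a relative change of 1.67 (SE 0.05, limma adjusted p = 6.42e-07). TIP1, a cell wall mannoprotein, had 127.17, 131.1 and 113.06 in med7N_del and 83.09, 88.91 and 82.54 in Med7_WT (1.58). MET2, the homoserine acetyltransferase of methionine synthesis, had 34.14, 29.83 and 37.86 against 26.2, 18.32 and 18.17 (1.73). HBN1, a nitroreductase-like protein, changed by 1.73, MHT1, a homocysteine methyltransferase, by 1.52, and MMP1, the permease for S-methylmethionine, by 1.44. DUR12, the urea amidolyase, had 36.47, 39.98 and 20.78 in med7N_del and 19.84, 22.7 and 25.57 in Med7_WT. It was called (1.49, limma adjusted p = 0.000481), yet the groups overlapped on the deposited scale. These 12 genes and the amino acid permease gene AGP1 (27.85, 34.53 and 23.94 in med7N_del, against 22.45, 23.03 and 25.34 in Med7_WT) were the 13 genes called higher on the deposited scale. The AGP1 groups overlapped there as well.

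Apart from the marker genes, the largest relative fall was that of CHA1, the serine and threonine deaminase used to grow on these amino acids as nitrogen source. CHA1 had 0.72, 1.09 and 0.77 in med7N_del, against 30.74, 56.73 and 53.49 in Med7_WT. This was 54.6-fold lower on the deposited scale, with a relative change of -3.61 (SE 0.20, limma adjusted p = 1.33e-05). CWP1, a cell wall mannoprotein, had 2.4, 2.57 and 1.16 in med7N_del and 32.12, 24.9 and 33.43 in Med7_WT (-2.34). HFM1, a DNA helicase of meiosis, had 1.45, 1.67 and 1.62 against 21.66, 19.07 and 20.94 (-2.02). CHA1, CWP1 and HFM1 were thus near the bottom of the scale in all 3 med7N_del libraries. ALD6, the cytosolic aldehyde dehydrogenase that makes acetate, was the most strongly transcribed of the 12 falls, with 164.8, 189.45 and 103.57 against 873.43, 989.82 and 1081.79 (-1.68).

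Apart from MED7, the remaining 8 of the 12 largest falls were FIT1, ZPS1, FRE4, CAT8, NRT1, FDC1, GPD1 and HMX1. CAT8, the activator of genes for growth on non-fermentable carbon, had 3.57, 3.87 and 2.3 in med7N_del and 18.33, 26.31 and 30.1 in Med7_WT (-1.56). NRT1, a nicotinamide riboside transporter, had 2.11, 2.66 and 1.99 in med7N_del and 18.48, 18.56 and 17.71 in Med7_WT (-1.53). GPD1, the glycerol phosphate dehydrogenase of the osmotic response, had 15.29, 11.22 and 7.95 against 65.78, 58.13 and 69.61 (-1.39). That every med7N_del library was below every Med7_WT library in these 3 genes follows from the rule that picked them. FIT1 and FRE4, a cell wall mannoprotein and a ferric reductase of iron uptake, changed by -1.98 and -1.61, and FDC1, a decarboxylase, by -1.47. ZPS1, a zinc-regulated surface protein, had 17.29, 17.13 and 2.79 in med7N_del and 41.95, 116.3 and 100.21 in Med7_WT. Its call (-1.85, limma adjusted p = 0.0322) was lost without Med7_WT replicate B (adjusted p = 0.112) or C (adjusted p = 0.0881). The ZPS1 call was also lost with replicate letter as a block (adjusted p = 0.0684) and with the Med7_EWE3 libraries added to the fit (adjusted p = 0.0557). HMX1, a heme oxygenase, changed by -1.27, and its call was lost without med7N_del replicate A (adjusted p = 0.0718) or B (0.0699), or without Med7_WT replicate A (0.064).

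Genes of methionine synthesis and sulfate assimilation were higher relative to the median gene. Of 32 listed genes 26 could be tested, of which 20 were higher and 0 lower, with a median relative change of 0.73, against -0.01 over all genes, and all 26 changes were positive. On the deposited scale 5 were higher, 14 lower and 7 not called. MET16, which reduces activated sulfate, had 31.17, 29.17 and 34.45 in med7N_del and 28.81, 31.25 and 29.85 in Med7_WT, a relative change of 1.11. MET6, the methionine synthase, had 159.15, 153.04 and 134.68 in med7N_del and 162.49, 155.43 and 150.58 in Med7_WT (0.97). MUP1, the main methionine permease, had 165.91, 189.9 and 174.19 against 176.11, 184.95 and 173.13 (1.03). For these 3 genes the deposited signals of the groups overlapped while the median gene was more than 2-fold lower. SAM2, an S-adenosylmethionine synthetase, changed by 0.58 and CYS3, which makes cysteine from cystathionine, by 0.55. CYS4, MET8, MET12, MET22, SAM1 and YCT1 were not called, CYS4 at 0.19 and SAM1 at 0.28. STR3, a cystathionine lyase below the filter and hence not tested, had 10.08, 11.02 and 12.42 in med7N_del and 3.52, 2.6 and 2.62 in Med7_WT.

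A pair of DNA motifs known from these genes were looked for in the 300 bases that end 100 bases before each start codon, on both strands: TGTGGC, the core bound by Met31 and Met32, and CACGTG, bound by Cbf1. TGTGGC occurred in 19 of the 26 tested methionine and sulfate genes (73.1%), against 9.25% of all 5792 windows. CACGTG occurred in 14 of the 26 (53.8%), against 4.63% of all windows. Among the 27 genes more than 2-fold higher, 11 (40.7%) held TGTGGC and 7 (25.9%) held CACGTG. A match is a description of the letters and not a bound site. The windows of the 3 largest rises on the list are shown for the placing of these motifs, 5′ to 3′ along each gene's own strand in the reference genome R64 (sacCer3), with matches in capitals: MUP3 (chrVIII:25841-26140, plus strand), MET28 (chrIX:384220-384519, minus strand) and MET2 (chrXIV:116949-117248, plus strand).
MUP3: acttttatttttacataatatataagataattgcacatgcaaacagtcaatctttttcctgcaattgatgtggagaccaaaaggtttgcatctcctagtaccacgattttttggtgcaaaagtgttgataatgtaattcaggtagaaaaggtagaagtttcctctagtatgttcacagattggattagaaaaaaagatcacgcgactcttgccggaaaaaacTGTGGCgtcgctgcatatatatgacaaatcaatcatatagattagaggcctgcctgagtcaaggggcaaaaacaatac
MET28: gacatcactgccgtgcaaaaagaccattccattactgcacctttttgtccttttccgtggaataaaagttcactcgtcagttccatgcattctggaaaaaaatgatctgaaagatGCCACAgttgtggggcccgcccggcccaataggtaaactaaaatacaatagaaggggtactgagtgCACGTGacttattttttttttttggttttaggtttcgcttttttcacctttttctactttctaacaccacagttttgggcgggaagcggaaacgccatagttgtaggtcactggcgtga
MET2: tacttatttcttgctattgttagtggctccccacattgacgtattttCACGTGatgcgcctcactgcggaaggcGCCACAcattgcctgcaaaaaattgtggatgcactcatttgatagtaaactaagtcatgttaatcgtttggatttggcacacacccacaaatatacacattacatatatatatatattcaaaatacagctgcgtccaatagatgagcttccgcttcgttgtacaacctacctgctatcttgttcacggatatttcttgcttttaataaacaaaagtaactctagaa
MET28 and MET2 held 1 match of each motif, and MUP3 held 1 match of TGTGGC and none of CACGTG.

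Other amino acid pathways were higher in part, beside 17.0% of all genes called higher and 19.2% called lower. The aromatic list had 9 of 12 tested genes higher and 0 lower (median 0.27), with ARO1, the 5-activity shikimate pathway enzyme, at 0.49. ARO9 and ARO10, which start and carry on the breakdown of aromatic amino acids, were below the filter: ARO9 had 2.75, 2.72 and 1.74 in med7N_del and 10.25, 16.41 and 15.76 in Med7_WT, and ARO10 had 0.13 to 0.17 in med7N_del and 3.99 to 9.69 in Med7_WT. Both breakdown genes were thus lower in every med7N_del library, on the deposited scale and without a test. The same held for 98.7% of the tested genes. The arginine list had 7 higher and 2 lower of 15 (median 0.24), with ARG2, the first enzyme of ornithine synthesis, at 0.54. The 2 lower genes were ARG3, an ornithine carbamoyltransferase with 4.86, 4.68 and 6.04 in med7N_del and 25.95, 20.23 and 20.12 in Med7_WT (-0.86), and ARG80, a regulator of arginine genes (-0.71). In lysine and histidine synthesis 6 were higher and 2 lower of 13 (HIS4 1.67, LYS1 0.56, HIS1 0.29; LYS4 -0.25, LYS12 -0.24). In branched-chain synthesis 5 were higher and 1 lower of 10, with LEU1 at 0.66 and the cytosolic transaminase BAT2 at -0.64, and the count of higher genes was 3 without med7N_del replicate B or without Med7_WT replicate B.

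TGACTC, the core bound by Gcn4, the general activator of amino acid synthesis genes, occurred in 12 of 15 arginine genes (80.0%), in 118 of the 745 higher genes (15.8%) and in 54 of the 844 lower genes (6.40%), against 8.63% of all windows. HIS4 held 3 matches, shown in capitals for its window (chrIII:68434-68733, minus strand, R64) to show how closely they are spaced.
HIS4: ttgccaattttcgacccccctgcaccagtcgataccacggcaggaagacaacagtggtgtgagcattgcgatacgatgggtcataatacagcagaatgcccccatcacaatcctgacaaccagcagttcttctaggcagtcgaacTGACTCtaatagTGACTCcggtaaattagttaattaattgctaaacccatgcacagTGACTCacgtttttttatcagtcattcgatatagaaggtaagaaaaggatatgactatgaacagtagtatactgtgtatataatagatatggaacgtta
The TATAAA motif, by contrast, was found in 43.8% of higher and 41.7% of lower genes, against 43.2% of all windows.

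The list of purine, pyrimidine and one-carbon genes had 7 higher and 5 lower of 24 and a median of 0.00, beside 17.0% of all genes called higher and 19.2% called lower. Its lower count was near the share of all genes. ADE17 and ADE12, the adenylosuccinate synthase (0.80), were higher, and the serine hydroxymethyltransferase SHM2 (-0.48) and the uracil phosphoribosyltransferase FUR1 (-0.47) were lower. Nitrogen catabolite and permease genes had 10 higher and 2 lower of 21 (median 0.18). DUR12, AGP1 (1.30), the oligopeptide transporter OPT1 (1.02) and the glutamate dehydrogenase GDH1 (0.92) were higher. The dicarboxylic amino acid permease DIP5 (-0.60) and the proline breakdown enzyme PUT2 (-0.34) were lower. In serine, glycine and threonine metabolism 3 were higher and 1 lower of 11, counts that did not clearly exceed the shares of all genes. SER3 was among the higher and CHA1 the lower one, and 6 were higher without Med7_WT A.

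The iron regulon, the genes that Aft1 switches on when iron is scarce, had more lower than higher genes, with counts that depended on single libraries. Of 29 tested genes (30 listed), 11 were lower and 1, the iron-sulfur scaffold gene ISU2 (0.78), was higher, with a median of -0.59. FET3, the multicopper oxidase of iron uptake, had 152.46, 158.28 and 249.51 in med7N_del, against 943.9, 686.6 and 641.22 in Med7_WT (-0.99, limma adjusted p = 0.0131). FTR1, its partner permease, had 63.9, 66.05 and 107.76 in med7N_del and 376.04, 302.47 and 274.27 in Med7_WT (-0.98). TIS11, which promotes decay of mRNAs of iron-using proteins, had 20.39, 19.4 and 69.06 against 270.27, 144.39 and 152.45 (-1.50, limma adjusted p = 0.0418). In all 3 genes med7N_del replicate C was the highest of its group. On the deposited scale their groups did not overlap, with med7N_del lower, as in 98.7% of all tested genes. Relative to the median gene they did not overlap for FET3 and FTR1 and did for TIS11. The siderophore transporter SIT1 changed by -1.06 and the ferric reductase FRE2 by -1.15. The siderophore transporter ARN2 (-1.26, limma adjusted p = 0.0598) and the regulator AFT1 (-0.25) were not called. Without med7N_del replicate C 20 genes were lower and the median was -0.94, whereas leaving out med7N_del A or B, or Med7_WT A or B, left 6 lower genes, and leaving out Med7_WT C left 7. The list's median in single libraries was -0.77, -1.01 and 0.00 in med7N_del A, B and C, against 0.27, -0.14 and -0.17 in Med7_WT A, B and C.

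TGCACCC, the core bound by Aft1, occurred in 14 of the 29 iron genes (48.3%) and in 4 of the 28 genes more than 2-fold lower (14.3%), against 1.47% of all windows. The window of FTR1 (chrV:461841-462140, minus strand, R64) is given because it held 2 matches, in capitals.
FTR1: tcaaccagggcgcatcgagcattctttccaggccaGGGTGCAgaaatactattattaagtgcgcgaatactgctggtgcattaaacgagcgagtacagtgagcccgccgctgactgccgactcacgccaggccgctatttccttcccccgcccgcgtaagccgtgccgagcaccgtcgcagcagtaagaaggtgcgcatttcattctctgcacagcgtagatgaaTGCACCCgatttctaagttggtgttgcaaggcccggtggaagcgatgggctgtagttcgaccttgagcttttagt

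The zinc regulon, driven by Zap1, had 0 higher and 6 lower of 14 genes (median -0.17). ZRT1, the high-affinity zinc transporter, had 96.39, 102.19 and 52.62 in med7N_del and 322.17, 471.15 and 411.07 in Med7_WT, a change of -1.25 (limma adjusted p = 0.00198). The vacuolar zinc exporter ZRT3 (-0.68) and the cell wall protein PST1 (-0.64) were also lower, and ZAP1 itself (-0.17) was not called.

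Cell wall genes had 1 higher and 13 lower of 28 (median -0.16). TIP1 was the higher one. CWP1 (-2.34), the glucanase EXG1 (-0.83), the mannoproteins CWP2 and SED1 (both -0.69) and the transglycosylase CRH1 (-0.65) were among the lower ones. TIP1 and CWP1, both surface mannoproteins, thus moved in opposite directions. Histone genes had 0 higher and 3 lower of 9 (HHT2 -0.44, HHO1 -0.38, HTB2 -0.34). The cyclin and cell-cycle list had 5 higher and 3 lower of 22, shares near those of all genes (17.0% and 19.2%), with 5 to 9 called over the other settings, and with the mitotic kinase CDC5 (0.51), the anaphase activator CDC20 (0.50) and the cyclin PCL1 (0.48) higher and the cyclin PCL9 (-0.75) lower.

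**Figure D2:**
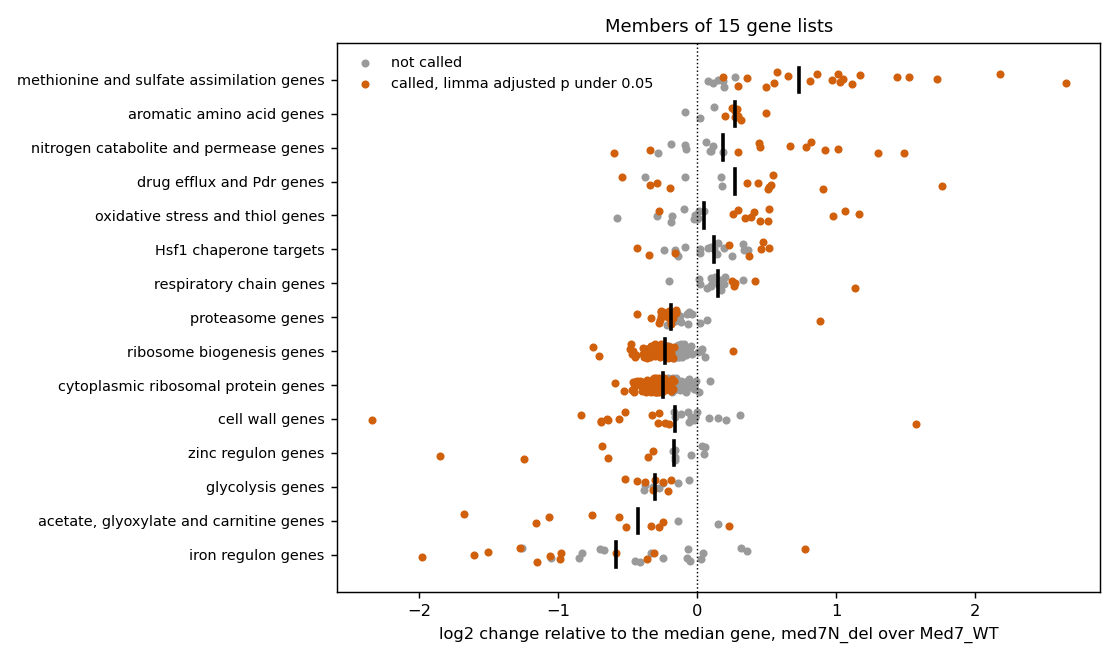
Relative log2 change, med7N_del over Med7_WT, of the tested members of 15 gene lists, 1 point per gene (orange where called), with a bar at each list's median. The methionine list lies at and above 0.08 throughout, while the iron list has a median of -0.59 and spreads widely.

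Many genes of cytoplasmic ribosomes and of their assembly were lower by small amounts. Of 133 tested cytoplasmic ribosomal protein genes, 80 were lower and 0 higher (median -0.25), and the count was 49 without med7N_del replicate B. RPS31, which encodes a ubiquitin-ribosomal fusion protein, had 50.38, 48.51 and 46.89 in med7N_del and 171.93, 153.01 and 134.5 in Med7_WT (-0.59), and RPL8A had 73.18, 78.98 and 70.11 against 247.21, 222.67 and 197.78 (-0.53). Many of these genes have near-identical copies, between which reads can be split uncertainly. In single libraries the list's median was -0.26, -0.29 and -0.19 in med7N_del, against 0.09, -0.02 and -0.07 in Med7_WT. Ribosome biogenesis genes, which process ribosomal RNA and assemble ribosomes, had 74 lower of 106 and 1 higher (median -0.23), REA1 at 0.26. That count was 47 without med7N_del A, 42 without med7N_del B and 46 without Med7_WT B. NSR1, a nucleolar protein of pre-rRNA processing, had 59.81, 65.57 and 61.75 in med7N_del and 244.32, 221.68 and 189.69 in Med7_WT (-0.75). DBP2, an RNA helicase, had 48.18, 51.26 and 49.76 against 164.27, 187.48 and 157.77 (-0.71). Mitochondrial ribosomal protein genes had 0 higher and 6 lower of 67, with a median of -0.01 at the level of all genes; that count was 11 without med7N_del A and 3 without med7N_del B or Med7_WT A.

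Proteasome subunits had 20 lower genes of 33 (median -0.19), with fewer without single libraries: 8 without med7N_del B, 9 without med7N_del C and 10 without Med7_WT B. The 1 higher member of that list was RPN4, the activator of proteasome genes, with 125.45, 139.9 and 130.6 in med7N_del and 139, 149.12 and 153.58 in Med7_WT (0.88). RPN4 and its list thus differed in direction.

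**Figure D3:**
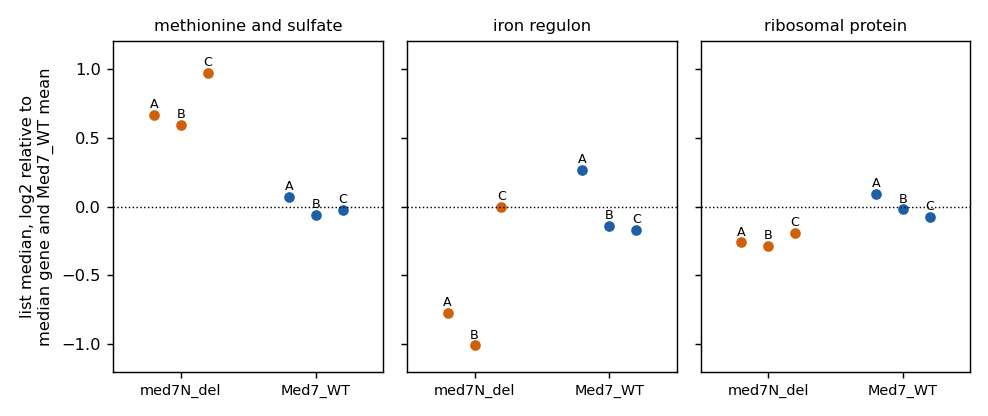
Median relative log2 level of the methionine, iron and ribosomal protein lists in each library, med7N_del left of Med7_WT, each gene set against its mean over the Med7_WT libraries. The iron list is near 0 in med7N_del C and at -0.77 and -1.01 in med7N_del A and B.

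The lists of carbon metabolism are set beside 17.0% of all genes called higher and 19.2% called lower. Glycolysis genes had 8 lower and 0 higher of 15 (median -0.30), with 3 lower without med7N_del B and 4 without Med7_WT A. PDC1, the main pyruvate decarboxylase, had 214.58, 220.87 and 188.47 in med7N_del and 702.78, 592.09 and 556.37 in Med7_WT (-0.52). FBA1, the aldolase, changed by -0.43 and CDC19, the pyruvate kinase, by -0.38. The acetate, glyoxylate and carnitine list had 9 lower and 1 higher of 12 (median -0.42), the higher one being the lactate dehydrogenase DLD1 (0.23). IDH1, a subunit of isocitrate dehydrogenase, had 10.21, 9.51 and 9.55 in med7N_del and 59.16, 50.18 and 37.87 in Med7_WT (-1.16), and the aconitase ACO1 had 26.94, 24.17 and 22.29 against 136.58, 113.12 and 81.95 (-1.06). IDH1 and ACO1, early enzymes of the citric acid cycle, were lower in every med7N_del library, as were 98.7% of all tested genes on the deposited scale. Among hexose transporters 2 were higher and 3 lower of 9, with HXT1, the low-affinity carrier, at 33.32, 46.77 and 38.25 in med7N_del, against 137.68, 137.11 and 133.37 in Med7_WT (-0.73). HXT4, induced when glucose is low, was relatively higher (0.72), with overlapping deposited signals of 34.07, 37.4 and 19.96 against 26.84, 38.92 and 48.29. Respiratory chain genes had 5 higher and 0 lower of 22, and the count of higher genes ranged from 2 to 10 over single left-out libraries. The higher counts of the hexose transporter and respiratory lists did not clearly exceed the share of all genes. HAP4, their activator, was higher on the relative scale (1.14, limma adjusted p = 0.00451).

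Stress and transport lists were mixed, beside 17.0% of all genes called higher and 19.2% called lower. The counts of Hsf1, Msn2/4 and phosphate genes did not clearly exceed these shares. Oxidative stress and thiol genes had 11 higher and 1 lower of 23 (median 0.05). OYE3, an NADPH oxidoreductase, had 51.33, 51.96 and 44.64 in med7N_del and 46.74, 44.55 and 43.95 in Med7_WT (1.16), the sulfiredoxin SRX1 changed by 1.06 and the cytochrome c peroxidase CCP1 by 0.98, and the peroxiredoxin AHP1 was the lower one (-0.28). Drug efflux genes had 8 higher and 4 lower of 16 (median 0.27), with FLR1, the polyamine exporter TPO4 (0.91) and the exporter QDR3 (0.55) higher and PDR10 (-0.54) lower. PDR5, the main multidrug pump, was not called, with 254, 318.12 and 301.15 in med7N_del and 927.66, 741.81 and 674.65 in Med7_WT (-0.37, limma adjusted p = 0.0599). Hsf1 chaperone targets had 5 higher and 3 lower of 25, and the count of higher genes was 13 without Med7_WT A, 2 without med7N_del B and 1 without med7N_del A, Med7_WT B or Med7_WT C. HSP82, an Hsp90 gene, had 28.85, 20.39 and 20.58 in med7N_del and 86.1, 34.93 and 28.82 in Med7_WT, where Med7_WT A stood apart, and was not called (0.12, limma adjusted p = 0.809). Msn2/4 general stress genes had 2 higher and 4 lower of 19, the glycerol phosphatase GPP2 (-1.21) and the aldehyde dehydrogenase ALD4 (-1.02) among the lower ones. Phosphate genes had 2 higher and 3 lower of 12, with the phosphate transporter PHO84 at 155.51, 157.02 and 122.92 in med7N_del and 538.7, 517.55 and 500.99 in Med7_WT (-0.80) and the sodium-coupled transporter PHO89 at 0.89. Ergosterol genes had 4 higher and 8 lower of 24, with the sterol methyltransferase ERG6 at -0.63 and the HMG-CoA synthase ERG13 at -0.55, and 5 lower without med7N_del B.

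Beside the 17.0% of all genes called higher and 19.2% called lower, the genes of Mediator and of the basal machinery did not stand out apart from MED7. Among 6 tested head genes only ROX3, which encodes Med19, was called, with 29.11, 27.48 and 25.28 in med7N_del and 64.54, 78.96 and 64.68 in Med7_WT (-0.27). In the middle and scaffold list of 6, RGR1, which encodes the scaffold Med14, was higher (0.20) and MED7 lower. The number of head genes called ranged from 0 to 4 over the other settings tried, and that of tail genes from 1 to 3. Of 5 tail genes NUT1 (0.19) and SIN4 (0.24), which encode Med5 and Med16, were higher, and the 4 kinase module genes had relative changes of 0.02 to 0.12 with limma adjusted p from 0.119 to 0.811. Of 43 genes for RNA polymerase II and general factors 7 were higher, a share near that of all genes, and 2 lower (median 0.04), with the TFIIH genes CCL1 (0.38), SSL2 (0.33) and RAD3 (0.30) higher.

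The Med7N degron comparison asks what changes with 3IAA, when the same N-terminal part is targeted for degradation, in libraries that share none with the deletion comparison. The 3IAA libraries had a median signal over all genes of 15.41 to 17.24, against 27.58 to 31.64 in the DMSO libraries. Relative to the median gene 1714 of 4262 genes (40.2%) were called, 849 higher (19.9%) and 865 lower (20.3%). Across the 4140 genes tested in both, the relative changes of the deletion and of the degron correlated at Pearson r = 0.346 and Spearman rho = 0.313, given as a description of genes that share libraries. Of genes called higher, 311 were higher in both, which is 43.19% of those higher in med7N_del and 37.42% of those higher with 3IAA. Of genes called lower, 289 were lower in both (36.77% and 35.33%). Opposite calls were found for 79 genes higher in med7N_del and 91 lower in it. The difference between both changes, tested over 12 libraries, was called for 1151 of 4371 genes (26.3%), 563 more positive (12.9%) and 588 more negative (13.4%) in the deletion.

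Iron and glycolysis genes were mostly lower, where called, in both settings. With the degron 19 of 25 iron genes were lower and 4 higher (median -0.45), and the difference was called for 5 of 26, 2 more positive and 3 more negative in the deletion. FET3 changed by -0.99 in med7N_del and -1.33 with 3IAA. Of 15 glycolysis genes 8 were lower in the deletion, against 14 with the degron (median -0.44), and 2 differences were called, both more positive in the deletion. CWP1 (-2.34 in the deletion, -1.71 with the degron), GPD1 (-1.39 and -0.97), SER3 (1.79 and 1.36) and FLR1 (1.76 and 0.97) also kept their direction.

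Methionine and ribosomal genes differed between the settings. Of the methionine genes 3 were higher and 6 lower of 18 with the degron (median -0.02). The difference was called more positive in the deletion for 18 of 22 and more negative for 0. The 22 include MUP3 and MET2, which were below the filter in the degron libraries alone. MET6 changed by 0.97 in med7N_del and -0.32 with 3IAA, a difference of 1.29. ADE17 had 6.22, 6.39 and 6.01 with 3IAA and 27.86, 28.59 and 22.95 with DMSO, and its relative change was 1.89 in the deletion and -1.11 with the degron (difference 3.00, SE 0.11, limma adjusted p = 3.56e-10). MUP3 had 6.43, 6.89 and 7.09 with 3IAA and 11.83, 14.33 and 11.36 with DMSO (difference 2.62), and it passed the filter of the difference through its high med7N_del signal. The purine, pyrimidine and one-carbon list had 13 lower and 0 higher with the degron, and 8 differences were called, all more positive in the deletion, among them ADE12, IMD3, GCV1, GCV2 and URA2 besides ADE17. Ribosomal protein genes were higher with the degron in 35 and lower in 2 of 126 (median 0.13), and 91 of 128 differences were called, all more negative in the deletion. Ribosome biogenesis genes had 46 higher and 3 lower of 104 with the degron, and 78 differences were called in the same direction.

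CHA1, HXT1 and CIT2 were among the 8 genes with the most negative difference. CHA1 had 29.77, 27.4 and 24.98 with 3IAA and 31.36, 30.73 and 25.61 with DMSO, and its relative change was -3.61 in the deletion and 0.73 with the degron (difference -4.33, limma adjusted p = 1.03e-08). HXT1 had 45.58, 44.03 and 43.61 with 3IAA and 34.58, 39.41 and 34.87 with DMSO, and its relative change was -0.73 in the deletion and 1.10 with the degron (difference -1.84). CIT2, the peroxisomal citrate synthase, changed by -0.51 in the deletion and 1.15 with the degron (difference -1.66). HXT4 differed the other way (0.72 and -1.04, difference 1.76). The Hsf1 targets had 3 higher and 19 lower genes with the degron (median -0.45), and 17 differences were more positive and 3 more negative in the deletion. NRD1 and HRP1, which limit their own transcripts through early termination, changed by 0.78 and 0.44 in the deletion and by 1.66 and 1.61 with the degron.

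**Figure D4:**
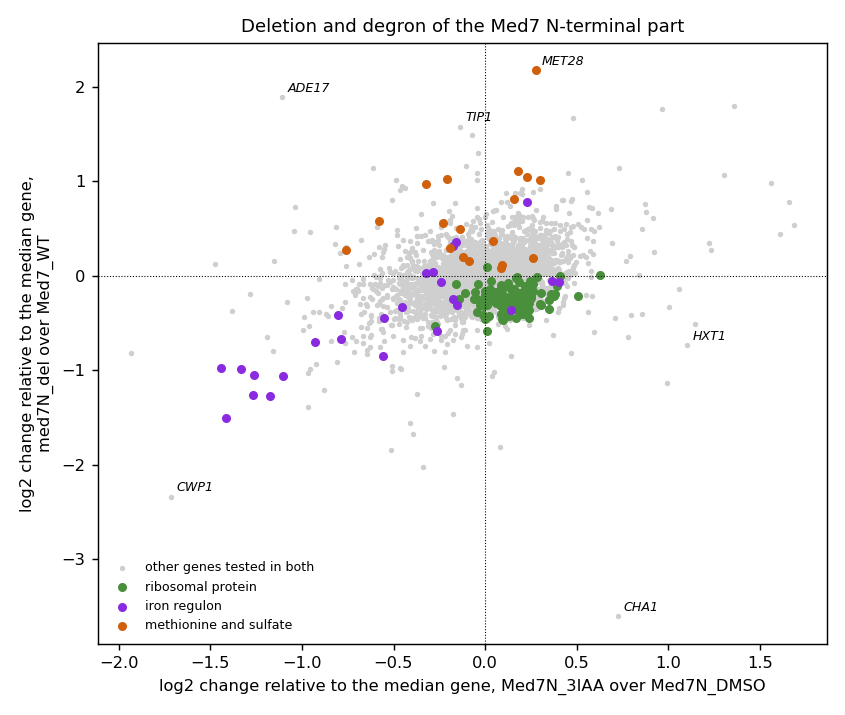
Relative log2 change with the Med7N degron (3IAA over DMSO, x axis) against that of the deletion (med7N_del over Med7_WT, y axis) for the 4140 genes tested in both, with 3 lists coloured. Methionine genes spread upward at degron changes around 0, and CHA1 lies far below the other genes, at -3.61 for the deletion and 0.73 for the degron.

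Med31 pairs with the part of Med7 that is missing in med7N_del, and its degron libraries were set beside the deletion in the same way. Their median signal over all genes was 20.77 to 23.36 with 3IAA, against 39.09 to 41.37 with DMSO. Relative to the median gene 1723 of 4563 genes (37.8%) were called, 805 higher (17.6%) and 918 lower (20.1%). Over 4306 genes the relative changes correlated with those of the deletion at Pearson r = 0.279 and Spearman rho = 0.253. The difference was called for 1365 of 4519 genes (30.2%), 670 more positive (14.8%) and 695 more negative (15.4%) in the deletion. Iron genes were lower in 18 and higher in 4 of 24 (median -0.47). Of the methionine genes 2 were higher and 3 lower of 20, and 17 differences were more positive in the deletion. MUP3 and MET2 were among these 17, though both were below the filter in the Med31 libraries alone. Ribosome biogenesis genes were higher in 57 of 106 and lower in 0, and 91 differences were more negative in the deletion.

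The other MED7 mutant, Med7_EWE3, was compared with med7N_del directly. Med7_EWE3 has 2 libraries, of 2195785 and 2592758 reads on genes, against 18418086 to 19851197 in Med7_WT. The Med7_WT libraries entered the fit for the estimate of the spread, and they also counted toward the filter and the gene set used for centring. Genes low in both mutants could therefore be tested. Strain, plasmid and plasmid marker differ between these mutants along with the MED7 allele and cannot be told apart from it. Relative to the median gene 1939 of 4308 genes (45.0%) differed, 880 higher (20.4%) and 1059 lower (24.6%) in med7N_del. Phosphate genes were higher in med7N_del in 11 of 11 tested, led by PHO89 with 31.76, 27.6 and 36.15 in med7N_del and 1.05 and 1.21 in Med7_EWE3. PHO84 had 155.51, 157.02 and 122.92 in med7N_del and 15.56 and 6.73 in Med7_EWE3 (difference 3.63). Against Med7_WT, by contrast, the phosphate list was mixed and PHO84 was lower in med7N_del, as given above. HIS4 had 91.11, 102.07 and 82.98 in med7N_del and 14.25 and 19.19 in Med7_EWE3 (2.35), and methionine genes were higher in med7N_del in 19 of 23 and lower in 0. CWP1 was lower, with 2.4, 2.57 and 1.16 in med7N_del and 23.34 and 23.44 in Med7_EWE3 (-3.09). THI7, the thiamine transporter, had 16.88, 15.64 and 8.63 in med7N_del and 166.28 and 108.01 in Med7_EWE3 (-3.30). In Med7_WT it had 34.88, 37.7 and 37.67, and its change in med7N_del against Med7_WT was not called (-0.37, limma adjusted p = 0.0999). Some genes were low in both mutants: CHA1 had 0.79 and 0.38 in Med7_EWE3, and ALD6 had 104.82 and 157.5. Against Med7_WT both mutants would share their control libraries, so these lows are given as values only. Med7_EWE3 differed from the others in marker genes too, with MED7 at 464.75 and 415.58.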

How the data were processed

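New RNA labelled with 4-thiouracil was sequenced by the authors with the Ovation Universal kit, per the labels' protocols. Bowtie2, HTSeq and the builds sacCer3 and ASM294v2 are named in the submitters' processing notes, without versions. The deposited signal is a read count per gene multiplied by 1 factor per library, rounded to 2 decimals, as seen in the values; the basis of that factor is not given in the sources used here. From it, log2(signal + 1) was tested with limma 3.58.1 (R 4.3.3, mean-variance trend, two-sided) for genes averaging 10 or more in the libraries of a fit, with Benjamini-Hochberg adjustment and calls at adjusted p under 0.05. The scale is that of log2(signal + 1), which understates the change of low genes. Relative changes used libraries centred on their median gene. Lists are described by counts and medians, without set tests. Single genes were named by a fixed rule: the 12 largest rises and 12 largest falls among called genes whose groups did not overlap on the relative scale, Mediator genes, and up to 4 members per list with the largest change. Genotype marker genes and genes within 1 kb of them were left out of the 24 and are given separately. Beyond that rule, AGP1 (deposited rises), genes that the comparisons with other strains turn on, further list members, untested members and regulators of a list were named after their values were seen. The members and lists were chosen with earlier results of these data known. On simulated data the relative test recovered 100.0% of 2-fold and 96.9% of 1.5-fold changed genes among 4374 tested, with 10 false of 203 calls. For the difference between deletion and Med7N degron it recovered 97.0% of 2-fold and 57.1% of 1.5-fold changes among 4356 genes, with 6 false of 158 calls. The simulated reads varied independently between genes with 1 fixed dispersion, and few genes were changed. The value of 1 read was assumed for med7N_del A and uncertain for B and C. These figures therefore do not cover spread that many genes of a library share. Replicate letters were not used to pair the libraries in the main fits. Of 1061 list entries 1060 matched, and 1 of the lists is not reported here. edgeR 4.0.16 and DESeq2 1.42.0 were run as alternatives for the degron comparisons, where reads could be recovered.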

Additional observations from a re-analysis of the deposited data

Results flagged for a closer look

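Several of the 24 genes with the largest changes differed between the lasting deletion and the Med7N degron by the limma test of the difference, relative to the median gene. The difference, deletion minus degron, was 2.62 for MUP3, 1.90 for MET28, 3.00 for ADE17, 0.80 for FLR1, 1.42 for HBN1, 1.77 for MET2, 1.19 for HIS4, 1.71 for TIP1 and 1.56 for DUR12. On the negative side it was -4.33 for CHA1, -1.68 for HFM1, -1.28 for ALD6, -1.15 for CAT8 and -1.29 for FDC1. These genes were picked by their change in the deletion, which is part of this difference, so large differences were favoured by the choice. MUP3, HBN1 and MET2 were below the filter in the degron libraries alone. Strain, plasmids, 3IAA treatment and the way the N-terminal part was lost differ between both comparisons and cannot be told apart.

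TRP1 averaged 12.56 in the libraries labelled Med7_WT and 4.97 in med7N_del, against 0.085 in Med7_EWE3, although the Med7_WT label names a LEU2 plasmid. It was outside the comparisons because it did not reach the filter.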

How the results depend on the processing

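No gene tested by name had a call that reversed direction in any setting, while uncalled changes near 0 are not covered by this. The balance of calls (745 higher and 844 lower on the relative scale) did reverse. With a filter at a mean signal of 50, which tests fewer genes, the number of genes called was 1829 on the deposited scale (3 higher and 1826 lower), 778 on the relative scale, 811 against Med7_EWE3, 708 for the Med7N degron, 553 for its difference from the deletion, 896 for the Med31 degron and 745 for that difference. Without a filter 2447 genes were called on the relative scale (1387 higher and 1060 lower). TMM scaling, which centres libraries by construction, gave 1591 calls (801 higher and 790 lower) and a median change of -0.0001 on the deposited scale, and a pseudocount of 5 gave a median of -0.93. The replicate block gave 1027 calls (499 higher and 528 lower) on the relative scale. Deviations of same-letter libraries correlated at -0.336, -0.027 and -0.558, and those of other letters at -0.382 to 0.504. Pairing by letter was therefore not used in the main fit, although so few correlations cannot exclude it.

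Leaving out 1 library at a time gave 4255 to 4419 calls on the deposited scale with a median of -1.10 to -0.97, and 1010 to 1394 on the relative scale, the lowest without med7N_del B. It gave 1561 to 1915 calls against Med7_EWE3, 1390 to 1599 for the Med7N degron and 938 to 1169 for its difference, 1242 to 1602 for the Med31 degron and 1085 to 1308 for that difference. Of 183 genes tested by name on the relative scale 150 were called, 32 of these lost the call in at least 1 setting and 18 others gained it. edgeR and DESeq2 were not run for comparisons with med7N_del, since the value of 1 read was not found for med7N_del A and was close to the deposited rounding for B and C.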
